A study of Homo sapiens with 12 samples.

Results

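Interferon-stimulated genes are the genes that cells switch on when an interferon binds its receptor. The set described here is a list of 59 such symbols, taken where they occur as gene symbols in either deposited count table. That rule uses no measured value, but the list was chosen with earlier results of these data known. All 59 were found among 27827 symbols, 59 of them in the table of the antagonist experiment and 24 in that of the agonist experiment. The cells were U937, an established human pro-monocytic line of the myeloid lineage, and RNA was sequenced from 12 libraries in 4 groups of 3. Per the labels, all groups were stimulated with interferon gamma at 50 ng/mL and then kept for 72 hours with antibody, whose concentration the labels write as 5 mg/mL. One group received an antagonist antibody to LILRB3, an inhibitory receptor of myeloid cells, and was paired with IgG controls of its own (set 1). Another received an agonist antibody to LILRB3 and was likewise paired with its own IgG controls (set 2). No group without interferon gamma is labelled, all groups are 1 cell line, and the labels name no separate cultures. The p-values therefore cover only differences among these libraries, which may be technical.

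Interferon gamma signals through the receptor chains IFNGR1 and IFNGR2 and the kinases JAK1 and JAK2, and many of its targets carry gamma-activated sites in their promoters. Type I interferons signal through IFNAR1, IFNAR2, JAK1 and TYK2 to a complex that holds STAT2 and IRF9 and binds interferon-stimulated response elements. In macrophages interferon gamma is known for raising the chemokines CXCL9, CXCL10 and CXCL11, the tryptophan-degrading enzyme IDO1 and the guanylate-binding proteins, which act on microbes inside the cell.

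The set 1 table had between 17142362 and 18820312 counts per IgG library and between 17035334 and 17771980 per antagonist library in rows with a gene symbol. The set 2 table listed 904 genes only, which summed to between 2764479 and 3522203 counts per library, so the depth of those libraries is unknown and members it does not list were not analysed there. LILRB3 itself had 2, 1 and 2 counts in the IgG and 5, 2 and 3 counts in the antagonist libraries of set 1. All 13 myeloid markers checked were counted in the IgG libraries of set 1, where the granule proteases ELANE and CTSG had 698 and 3326 counts per 1000000 library counts (CPM), MPO 25 counts in all and CD14 22. Among markers of other lineages, MS4A1 (B cells), HBB (red cells), EPCAM (epithelium) and CD3D, CD3E, CD3G and KLRD1 (T and NK cells) were at 0 there. The summed T and NK list, nearly all of it NKG7, lay between 335 and 357 CPM in IgG and between 289 and 292 CPM in antagonist libraries of set 1, and between 1236 and 1378 CPM of listed counts in IgG and between 1394 and 1546 in agonist libraries of set 2. The 2 listed myeloid markers summed to between 123 and 151 CPM of listed counts in IgG and between 224 and 269 in agonist libraries. The part of these markers in the results below was not tested. IgG library 1 of set 1 stood apart in its group, with 10.4 and 18.5 chi-square units per degree of freedom to libraries 2 and 3, which differed from each other by 4.32. Agonist library 1 did so too, with 24.9 and 26.6 beside 3.74 for its group's other pair.

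Several classical interferon gamma targets were at or near 0 counts in every library of set 1. The labels give interferon gamma for all 12 samples, and column names begin with IFN in the set 1 table only. CXCL9 (chromosome 4, 76001275 to 76007509, GRCh38.p14) had 0, 1 and 0 counts in the IgG libraries, CXCL10 (chromosome 4, 76021118 to 76023497) had 0, 0 and 0, and IDO1 had 0, 0 and 0. The chemokine CXCL11 had 6, 3 and 1 counts and the guanylate-binding protein GBP1 1, 1 and 0. IRF1, GBP5 and SOCS1, also targets of interferon gamma, were counted in every set 1 library, with values given below. For a count of 0, 3 counts over the group were taken as the floor (one-sided, counting error only). The level of CXCL10 and IDO1 in these IgG libraries could thus be up to 0.0563 CPM, or 0.0692 CPM by the exact two-sided limit. In the antagonist libraries CXCL9 and IDO1 had 0 counts, CXCL10 and CXCL11 had 1 each and GBP1 had 2.

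In the IgG libraries of set 2 the same kind of gene was well counted: CXCL10 had 756, 620 and 789 counts and CXCL11 153, 115 and 148. CXCL9, IDO1 and GBP1 are not listed there. To set the 2 IgG groups side by side, counts were expressed as CPM over the 902 genes present in both tables (shared CPM). On this scale CXCL10 stood at 234 ± 14.2 (SD, n = 3) in set 2, 616-fold the floor of 3 counts over the IgG group of set 1. By the exact two-sided counting limit CXCL10 was at least 501-fold higher in set 2. The complement inhibitor SERPING1 was at 83.8-fold and the antiviral gene IFI44L at 195-fold that floor, each with 0 counts in set 1. By the exact limits they were at least 67.9-fold and 158-fold higher in set 2. IFI44, with 2 counts in set 1, was 507-fold higher (95% counting interval 133 to 3994).

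Members counted in both sets were also higher in the IgG libraries of set 2. The guanylate-binding protein GBP2 had 24.5, 28.0 and 26.3 shared CPM in set 1 and 915, 863 and 849 in set 2, a ratio of 33.3. IFI6, an antiviral protein of mitochondria and the endoplasmic reticulum, had 371, 337 and 316 and 4573, 4895 and 4708, a ratio of 13.8. IRF1, a transcription factor and early target of interferon gamma, had 185, 171 and 158 and 889, 948 and 831, a ratio of 5.20. Libraries of the sets did not overlap for any of these genes. STAT2, the partner of IRF9, had a ratio of 1.43 and its libraries were also separated, whereas the virus-tethering protein BST2, with 1582, 1345 and 1243 and 1556, 1712 and 1590.3, was the only one of 24 whose libraries overlapped.

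Of the 24 members in both tables, 23 were higher in all 3 IgG libraries of set 2 than in any of set 1, against 46.5% of the 902 shared genes. The median ratio was 6.91 for the members and 1.04 for the 878 other shared genes. A ratio above 10 was found for 11 members, against 5.54% of shared genes. The 24 members together took between 0.413% and 0.471% of shared counts in the IgG libraries of set 1 and between 1.76% and 1.81% in those of set 2. No test was made, since the tables were deposited separately and the listed genes of set 2 are a selection. Members enter this comparison only if listed in set 2, so members with low levels there may be missing. The count of members higher in set 2 may therefore be favoured by the listing. The set cannot be told apart from any other difference between the experiments.

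**Figure D1:**
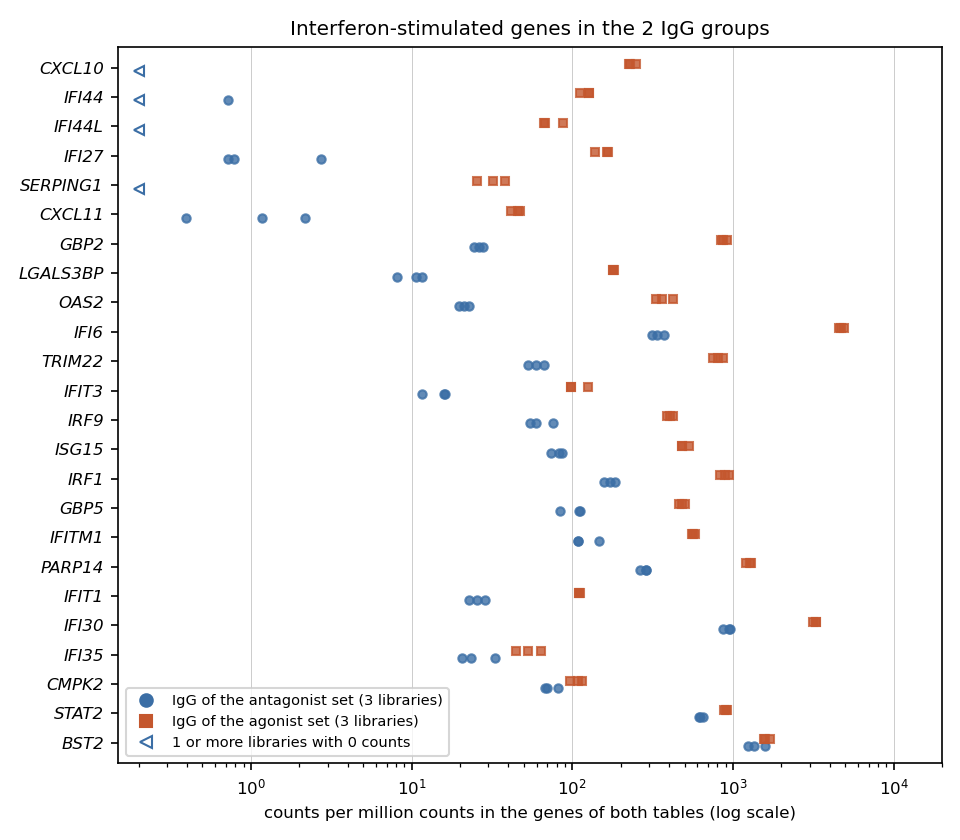
Levels of the 24 interferon-stimulated genes present in both tables, in the 3 IgG libraries of each set, as CPM over the 902 shared genes (log scale); open triangles mark genes with 0 counts in 1 or more set 1 libraries. Set 2 lies to the right of set 1 for 23 genes, by a ratio of 1.47 for CMPK2 and 33.3 for GBP2, and BST2 overlaps.

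The promoters of some members are printed, chosen for a rise or fall with the agonist or as an interferon gamma target. That target, IRF1, also rose with the agonist (0.19). A link between motif and result was not tested. The printed promoters are RefSeq sequences (GRCh38.p14), 250 bases before to 50 after the start, 5′ to 3′ on the gene's strand. Capitals mark matches to the core of an interferon-stimulated response element (GAAA, any 2 bases, GAAA) or to TTCNNNGAA (the core of a gamma-activated site), searched on both strands. IFI27 and IFI6 rose with the agonist, CXCL10 and CXCL11 fell, and IRF1 is an early target of interferon gamma:
IFI6 (chr1:27672143-27672442, minus strand): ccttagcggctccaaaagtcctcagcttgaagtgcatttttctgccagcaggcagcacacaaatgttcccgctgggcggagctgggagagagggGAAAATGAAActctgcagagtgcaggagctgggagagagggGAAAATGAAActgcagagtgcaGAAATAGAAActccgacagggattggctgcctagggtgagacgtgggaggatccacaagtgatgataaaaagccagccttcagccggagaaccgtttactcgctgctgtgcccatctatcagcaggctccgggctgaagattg
IFI27 (chr14:94110486-94110785, plus strand): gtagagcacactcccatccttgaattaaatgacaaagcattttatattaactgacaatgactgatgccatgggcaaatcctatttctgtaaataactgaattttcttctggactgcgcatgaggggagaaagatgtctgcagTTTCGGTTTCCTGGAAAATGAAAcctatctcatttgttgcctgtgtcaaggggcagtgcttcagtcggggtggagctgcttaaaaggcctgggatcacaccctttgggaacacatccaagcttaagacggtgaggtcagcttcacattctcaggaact
CXCL10 (chr4:76023448-76023747, minus strand): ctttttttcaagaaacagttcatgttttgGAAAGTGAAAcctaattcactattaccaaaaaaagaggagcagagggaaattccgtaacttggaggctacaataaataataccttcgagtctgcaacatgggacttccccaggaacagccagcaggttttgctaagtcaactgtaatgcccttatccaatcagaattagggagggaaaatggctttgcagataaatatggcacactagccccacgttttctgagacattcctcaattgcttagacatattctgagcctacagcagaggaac
CXCL11 (chr4:76036021-76036320, minus strand): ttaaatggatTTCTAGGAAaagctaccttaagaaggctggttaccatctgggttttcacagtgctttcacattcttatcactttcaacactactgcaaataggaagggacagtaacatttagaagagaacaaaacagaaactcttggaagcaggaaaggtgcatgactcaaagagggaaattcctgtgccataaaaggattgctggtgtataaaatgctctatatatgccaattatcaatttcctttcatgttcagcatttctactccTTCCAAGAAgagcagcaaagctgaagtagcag
IRF1 (chr5:132490724-132491023, minus strand): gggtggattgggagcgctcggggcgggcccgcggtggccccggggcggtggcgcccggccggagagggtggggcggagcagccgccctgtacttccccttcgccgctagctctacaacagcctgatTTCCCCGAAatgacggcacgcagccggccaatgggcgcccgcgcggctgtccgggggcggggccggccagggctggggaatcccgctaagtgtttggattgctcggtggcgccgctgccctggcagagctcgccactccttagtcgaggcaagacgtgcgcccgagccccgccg

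IFI6 held 3 matches to the response element core, starting 156, 115 and 93 bases before the start. IFI27 held 2 matches to the response element core and 1 to TTCNNNGAA between them, overlapping both, so they form 1 run of capitals. CXCL10 held 1 match to the response element core, CXCL11 held 2 to TTCNNNGAA, and IRF1 held 1 to TTCNNNGAA. Of 44 members with a promoter in the table, 29 (65.9%) held the response element core, against 3.57% of all 35116 promoters of that length, and 12 (27.3%) held TTCNNNGAA, against 7.66%. Both motifs were in 7 members and neither in 10. Members listed in set 2 held TTCNNNGAA in 8 of 19 promoters and members not listed there in 4 of 25, and the response element core in 12 of 19 and 17 of 25. No test was made of either. A match is a run of letters and not a site shown to be bound. The members without an entry were IFIT2, IFITM2, MX2, OAS2, OASL, TRIM22, USP18, GBP2, GBP5, IRF2, IRF7, IDO1, SERPING1, APOL1 and APOL2.

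In set 1, 47 of 59 members passed the filter on low counts (edgeR's filterByExpr) and were tested. Of the 12 others, 8 were at the floor, with 3 or fewer counts over the 3 libraries of each group: IFI44, IFI44L, GBP1, CXCL9, CXCL10, IDO1, SERPING1 and EPSTI1. CXCL11 was at the floor in antagonist libraries only, with 6, 3 and 1 counts in IgG against 0, 1 and 0 (ratio 0.102, 95% counting interval 0.00234 to 0.715), and 6 of the 10 IgG counts came from library 1, so counts this low carry little weight. IFI27 had 11 and 15 summed counts in IgG and antagonist libraries, IFIT2 14 and 12, and GBP4 11 and 10 (3, 5 and 3 against 1, 3 and 6), with counting intervals of the ratio that included equality. Per kilobase of exon (GENCODE 29), the best counted members in the IgG libraries were the membrane proteins IFITM2 (209 CPM per kilobase) and BST2 (189), then IFI6 (60.1) and the lysosomal thiol reductase IFI30 (56.7). In set 2, where CPM refers to listed genes only, the order by CPM per kilobase began with IFI6 (5431), BST2 (1439), IFI30 (1299), the ubiquitin-like modifier ISG15 (525) and IFITM1 (523), the last pair being close to each other. IFITM2 is not listed in set 2, so this order holds among listed members.

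With the antagonist antibody, 8 of the 47 tested members fell and 3 rose at an adjusted p of 0.05 (edgeR quasi-likelihood test, Benjamini-Hochberg over 13778 genes). Among all tested genes 36.1% passed, 20.5% falling and 15.6% rising, so the members' 17.0% and 6.38% were no larger than the background. The median log2 fold change was -0.12 for the members and -0.01 for all tested genes, and 34 members had a negative and 13 a positive value. In other settings the member median lay between -0.14 (without IgG library 3) and -0.017 (without IgG library 1). That of all tested genes was 0.007 in both of these settings. When libraries were scaled by their totals, 4 members fell and 4 rose, and the share of rises among all calls went from 43.1% to 65.4%. The members that fell were the membrane-associated antiviral proteins IFITM1, IFITM2 and BST2, the modifier ISG15, IFI6, IFI30 and the nucleic acid sensors IFI16 and IFIH1, and those that rose were STAT2, PARP14 and APOL2. In bulk RNA, a lower level in each cell and fewer cells with the RNA cannot be told apart.

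IFI6 (chromosome 1, 27666064 to 27672192) had 55.3, 51.3 and 49.2 CPM in the IgG and 35.2, 35.9 and 39.7 CPM in the antagonist libraries. All antagonist libraries lay below all IgG libraries, and the log2 fold change was -0.49 ± 0.07 (SE; adjusted p = 0.000593, lower in 3 of 3 libraries). BST2 (chromosome 19, 17402939 to 17405630) had 236, 205 and 194 CPM against 158, 169 and 167, a change of -0.36 ± 0.07. IFI30, which reduces disulfide bonds of antigens in lysosomes, had 143, 132 and 147 CPM against 113, 109 and 109.9, a change of -0.35 ± 0.06. For these 3 genes the groups were separated.

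IFITM2 (chromosome 11, 307816 to 309395) and IFITM1 (chromosome 11, 314040 to 315272) encode related membrane proteins that hinder virus entry. IFITM2 had 308, 329 and 328 CPM against 253, 259 and 265 (-0.31 ± 0.06). IFITM1 had 21.8, 16.7 and 17.0 CPM against 13.9, 15.4 and 13.7 (-0.37 ± 0.12). The groups were separated for both, and IgG library 1 was the highest for IFITM1, whose call was lost without it (-0.20), without antagonist library 1 (-0.35) or without antagonist library 3 (-0.34). The third relative IFITM3, named after its values were seen, had 1.18, 1.42 and 1.53 CPM against 1.77, 0.882 and 0.661, with overlapping groups. Reads can be shared in this family: 32.0% of the 50-base windows of IFITM1 transcripts, 29.7% of those of IFITM2 and 16.0% of those of IFITM3 also occur in another member of the list, so their separate values are uncertain.

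ISG15 had 12.4, 11.2 and 13.5 CPM against 8.73, 9.09 and 10.9 (-0.37 ± 0.12), with separated groups of which the nearest libraries were close. Its call was lost with DESeq2 (-0.35), and on leaving out IgG library 3 (-0.30), antagonist library 1 (-0.31) or its library 2 (-0.33). The DNA sensor IFI16 had 111, 106 and 106 CPM against 93.7, 96.5 and 89.9 (-0.21 ± 0.06), and its call needed IgG library 2 (without it -0.21), antagonist library 1 (-0.21) and antagonist library 3 (-0.18). The sensor of viral double-stranded RNA IFIH1 had 38.8, 37.7 and 38.0 CPM against 32.1, 34.9 and 32.3 (-0.21 ± 0.07). All 3 genes had separated groups, but the IFIH1 call rested on most libraries, since it was lost when any library except antagonist library 2 was left out (between -0.20 and -0.17) and with DESeq2 (-0.19). When scaled by library totals, 4 of the falls remained past the threshold and IFIH1, IFI16, IFITM1 and ISG15 did not.

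STAT2 (chromosome 12, 56341597 to 56360107) rose from 97.1, 94.6 and 95.5 CPM in IgG to 116, 123 and 116 CPM in antagonist libraries (0.30 ± 0.06). PARP14, an ADP-ribosyltransferase, went from 42.8, 44.1 and 41.0 to 52.0, 51.8 and 51.0 CPM (0.28 ± 0.06). APOL2, a member of the apolipoprotein L family, went from 18.7, 18.5 and 17.2 to 24.1, 22.6 and 24.3 CPM (0.38 ± 0.08). Groups were separated for all 3, and each kept its call in the 9 other settings tried. XAF1, a pro-apoptotic protein named after its values were seen, was also separated upward without a call, with 8.81, 8.95 and 8.20 against 9.36, 11.0 and 11.9 CPM (adjusted p = 0.0615), and it passed with library totals (0.39), without IgG library 1 (0.35) or without antagonist library 1 (0.40). The members that did not pass lay between -0.53 ± 0.24 for IFI35 and 0.58 ± 0.27 for GBP3. IFI35, a regulator of sensor signalling, passed without IgG library 1 (-0.66) or with no filter (-0.54), and IRF9, the DNA-binding partner of STAT2, without IgG library 1 (0.35).

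By role, 4 of 22 tested antiviral effectors and 2 of 5 sensors fell and 0 rose, while 1 of 7 transcription factors and inhibitors rose and 0 fell. Of 10 tested members with other roles 2 fell and 2 rose. Among all tested genes 20.5% fell and 15.6% rose, and a difference between roles was not tested. Among all tested members, 10 had all antagonist libraries below all IgG libraries and 5 above, which is 21.3% and 10.6% against 27.1% and 21.9% of all tested genes. IRF1 had 27.5, 26.0 and 24.6 CPM against 23.0, 24.7 and 22.2 (adjusted p = 0.143). SOCS1, the feedback inhibitor of JAK kinases, had 3.87, 3.61 and 5.50 against 3.37, 4.19 and 4.51, with overlapping groups. None of the 3 tested guanylate-binding proteins passed: GBP2 had 3.65, 4.27 and 4.10 against 3.82, 3.75 and 2.97 CPM and GBP5 16.5, 17.0 and 13.1 against 16.5, 14.7 and 14.1, both overlapping. GBP3 had 0.913, 0.889 and 1.35 against 1.60, 1.54 and 1.54 CPM, separated upward with an adjusted p of 0.117 at few counts.

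**Figure D2:**
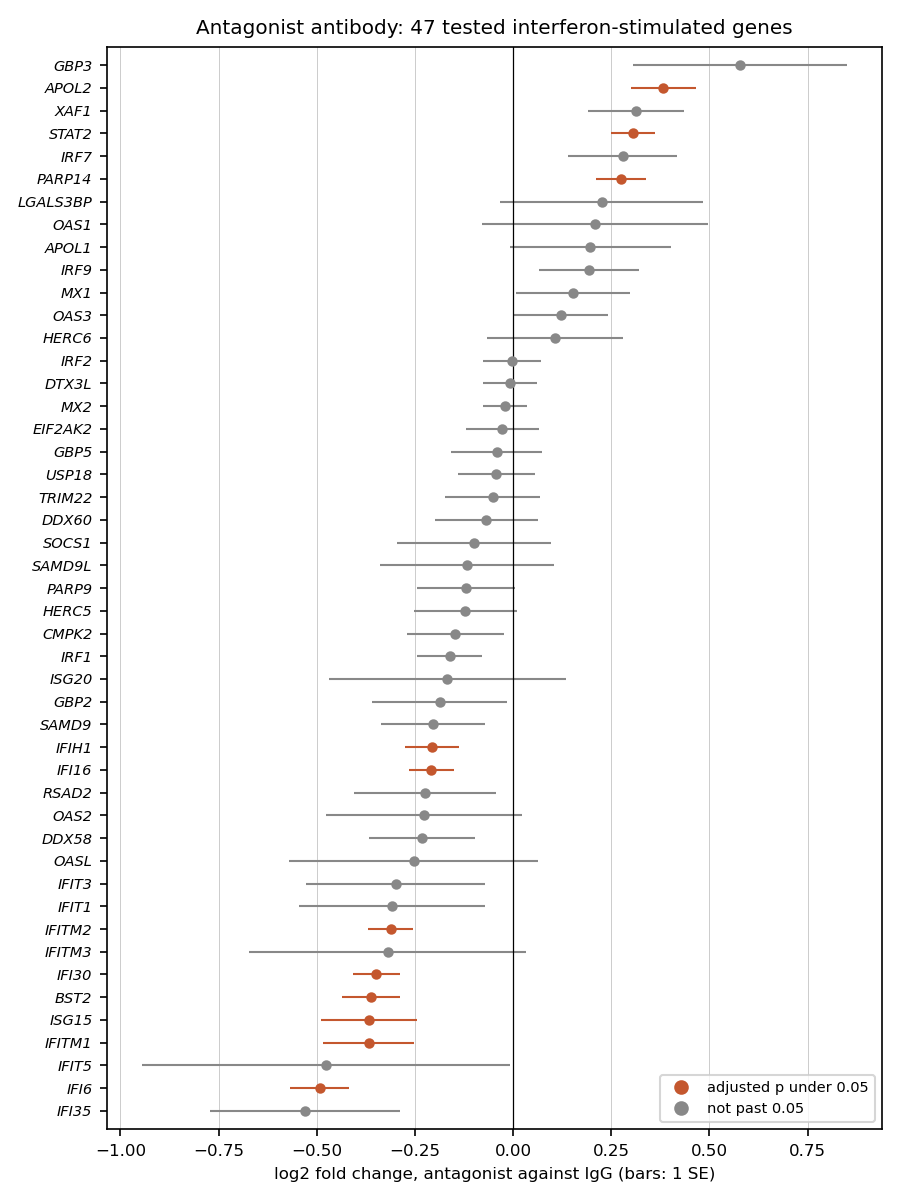
Log2 fold change (antagonist against IgG, bars 1 SE, 3 libraries per group) of the 47 tested interferon-stimulated genes, ordered by value; coloured points passed an adjusted p of 0.05 in edgeR's test. The 8 coloured genes left of 0 lie between -0.49 and -0.21, the 3 on the right between 0.28 and 0.38.

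With the agonist antibody, 22 of the 24 listed members were higher than with IgG and 2, the chemokines CXCL10 and CXCL11, were lower. All 24 passed edgeR's adjusted p of 0.05, but so did 99.9% of the 904 listed genes, of which 55.6% rose and 44.2% fell, and the 3 against 3 libraries were separated upward for 53.4% and downward for 44.1% of listed genes. The table thus holds genes selected on these same libraries, and a call in it is no independent evidence of change. The median log2 fold change was 0.32 for the members and 0.19 for all listed genes. Scaling takes most genes to be unchanged, and genes picked for a change do not let that be checked, so the zero point is uncertain. With DESeq2's size factors and test the median over all listed genes was 0.09, and 15 members rose and 2 fell. Higher calls then made up 43.5% of all calls in place of 55.7%.

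IFI27, a small mitochondrial and nuclear membrane protein, had the largest rise, from 139, 165 and 164 CPM of listed counts in IgG to 346, 275 and 281 in agonist libraries (0.95 ± 0.11, SE). SERPING1 went from 38.0, 31.9 and 25.2 to 50.3, 60.1 and 58.2 (0.82 ± 0.18). Agonist library 1 was the highest for IFI27 and the lowest for SERPING1, and all agonist libraries lay above all IgG libraries for both. IFI35, which binds the interferon-induced factor NMI, went from 53.4, 63.3 and 44.0 to 109, 64.9 and 72.4 (0.62 ± 0.20). Its agonist library 1 stood far above the others, and without that library the value was 0.36.

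IFI6 went from 4586, 4842 and 4664 to 8035, 6369.8 and 6353 CPM of listed counts (0.56 ± 0.08). IFI30 went from 3294, 3123 and 3252 to 5037, 4449.6 and 4302 (0.51 ± 0.06). BST2 went from 1561, 1693 and 1575 to 2295, 1936 and 1955 (0.36 ± 0.07). In these 3 genes agonist library 1 was again the highest, and without it the values were 0.44, 0.44 and 0.27. Over the 24 members, agonist library 1 was the highest of the 3 for 9 and the lowest for 13, so it did not lie to 1 side of the others.

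The neighbouring genes IFI44L and IFI44 on chromosome 1, antiviral genes of the type I response, were at the floor in set 1 and well counted here. IFI44L went from 67.9, 65.8 and 86.8 to 118, 96.2 and 117 CPM of listed counts (0.59 ± 0.14). IFI44 went from 127, 110.2 and 126 to 161, 185 and 168 (0.50 ± 0.10). IFIT3, a scaffold for the RNA-binding IFIT1, went from 126, 97.3 and 97.8 to 146, 147 and 159 (0.49 ± 0.12), and CMPK2, a mitochondrial nucleotide kinase, from 109.6, 115 and 95.9 to 139, 151 and 154 (0.47 ± 0.11). No agonist library overlapped with an IgG library in these 4 genes.

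CXCL10, which draws T cells through the receptor CXCR3, had 228, 222 and 248 CPM of listed counts in IgG and 159, 142 and 159.8 in agonist libraries (-0.60 ± 0.09, adjusted p = 0.000218 by edgeR). CXCL11, also a ligand of that receptor, had 46.2, 41.2 and 46.5 and 19.0, 24.7 and 23.6 (-0.99 ± 0.18). Both were lower in 3 of 3 libraries, as were 44.1% of listed genes. Both kept their call in the 9 other settings tried. The listed genes were selected on these same libraries, so neither result is independent evidence of a fall. The third chemokine of the cluster, CXCL9, was not analysed in set 2.

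The other 12 members that rose had values between 0.17 and 0.35. They were the antiviral effectors OAS2, IFIT1, IFITM1, ISG15 and TRIM22, the guanylate-binding proteins GBP2 and GBP5, the transcription factors IRF1, IRF9 and STAT2, PARP14 and LGALS3BP. IRF1 went from 891, 938 and 823 to 1048, 1017 and 959 CPM of listed counts (0.19 ± 0.06), GBP2 from 917, 854 and 841 to 950.1, 1011 and 979 (0.17 ± 0.06) and GBP5 from 481, 494 and 457 to 512, 531 and 575 (0.18 ± 0.07). With DESeq2's size factors and test, changed together, the calls of GBP2 (0.08), GBP5 (0.08), IRF1 (0.09), IRF9 (0.09), TRIM22 (0.10), STAT2 (0.12) and IFIT1 (0.24) were lost.

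GBP5 was also lost with library totals (0.16). Single libraries decided some of these calls. GBP2 was no longer past the threshold without IgG library 3 (0.15) or agonist library 2 (0.15), GBP5 without IgG library 1 (0.18), IgG library 3 (0.15) or agonist library 3 (0.13), and TRIM22 without IgG library 2 (0.14) or agonist library 2 (0.16). IRF1 was lost without IgG library 3 (0.14) and IRF9 without IgG library 1 (0.17). The 35 members not listed in set 2, among them MX1, MX2, OAS1, USP18 and GBP1, were not analysed there.

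**Figure D3:**
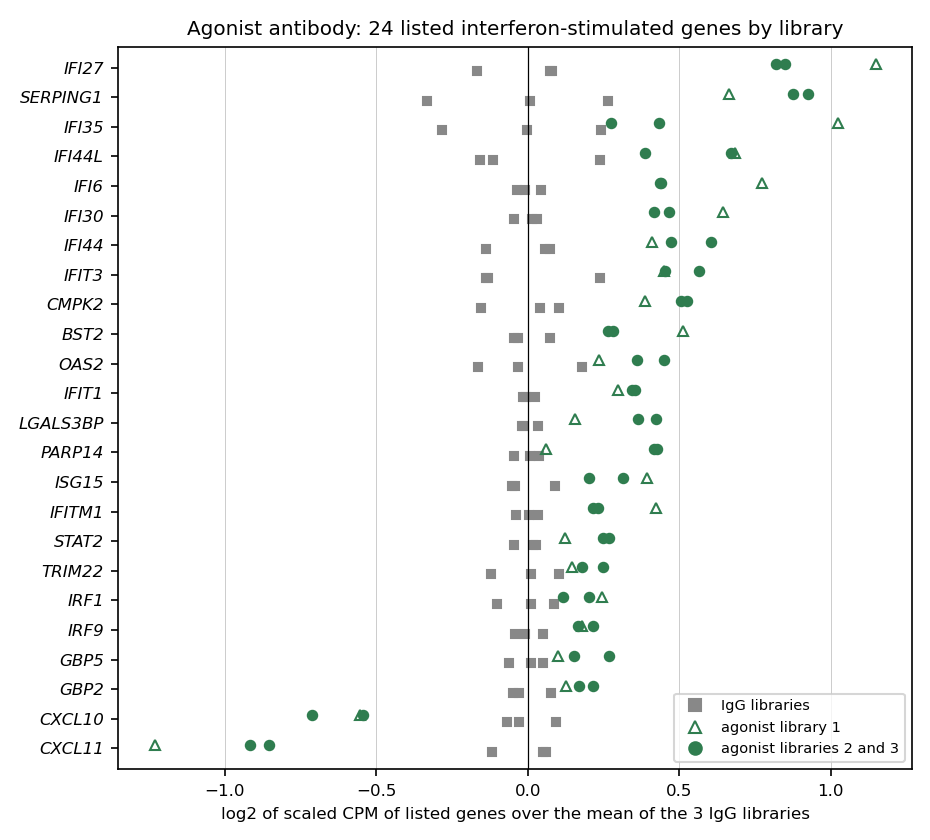
Each library's scaled CPM of listed genes for the 24 listed members, as log2 relative to the mean of the 3 IgG libraries of set 2 (squares, IgG; open triangles, agonist library 1; filled circles, agonist libraries 2 and 3). The 3 agonist libraries lie above the 3 IgG libraries for 22 genes and below them for CXCL10 and CXCL11.

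The 2 antibodies were compared over 18 members that were tested in both sets; the 6 other listed members were below the filter in set 1 and have no readable antagonist value. The sets have separate controls. All 18 were higher with the agonist, while with the antagonist 5 fell, 2 rose and 11 did not pass. Among all listed genes 55.6% rose with the agonist. Of all genes tested with the antagonist, 20.5% fell and 15.6% rose. CXCL10 and CXCL11, the only listed members lower with the agonist, are among the 6 left out. The difference of the effects (agonist minus antagonist, edgeR interaction over 902 shared genes) passed an adjusted p of 0.05 for 11 of the 18, each with the agonist value higher. The interaction test also covered the 6 others and none of them passed, so 11 of 24 members did (45.8%). Of all shared genes, which include genes below the filter in set 1, 56.5% passed. The agonist value was higher for 29.7% and lower for 26.8%. The difference was 1.05 ± 0.12 (SE) for IFI6 (adjusted p = 4.67e-06), 0.86 ± 0.09 for IFI30 and 0.72 ± 0.11 for BST2.

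IRF9, STAT2, PARP14 and LGALS3BP did not differ past the threshold, with values of 0.19, 0.30, 0.28 and 0.23 for the antagonist and 0.19, 0.21, 0.31 and 0.32 for the agonist. OAS2 (0.58 ± 0.25), TRIM22 (0.24 ± 0.12) and GBP5 (0.22 ± 0.13) also missed it. OAS2 passed without antagonist library 3 (0.88) or IgG library 2 of set 2 (0.67), TRIM22 without IgG library 2 of set 1 (0.32) and GBP5 without IgG library 3 of set 1 (0.32), and STAT2 passed with DESeq2 (-0.24). The uncertain zero point of set 2 enters every difference. So does the selection of its genes on these libraries, so a call of a difference is no independent evidence. For the difference, totals were summed over the shared genes only, and DESeq2's size factors came from these genes too. Such totals in place of TMM moved the median difference over all shared genes by -0.12 and DESeq2 moved it by -0.15. Under either, GBP2, IFIT1 and IRF1 dropped out of the 11 and the other 8 remained. Calls with the agonist value higher made up 52.5% of all calls among shared genes, 39.0% with totals and 35.9% with DESeq2.

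**Figure D4:**
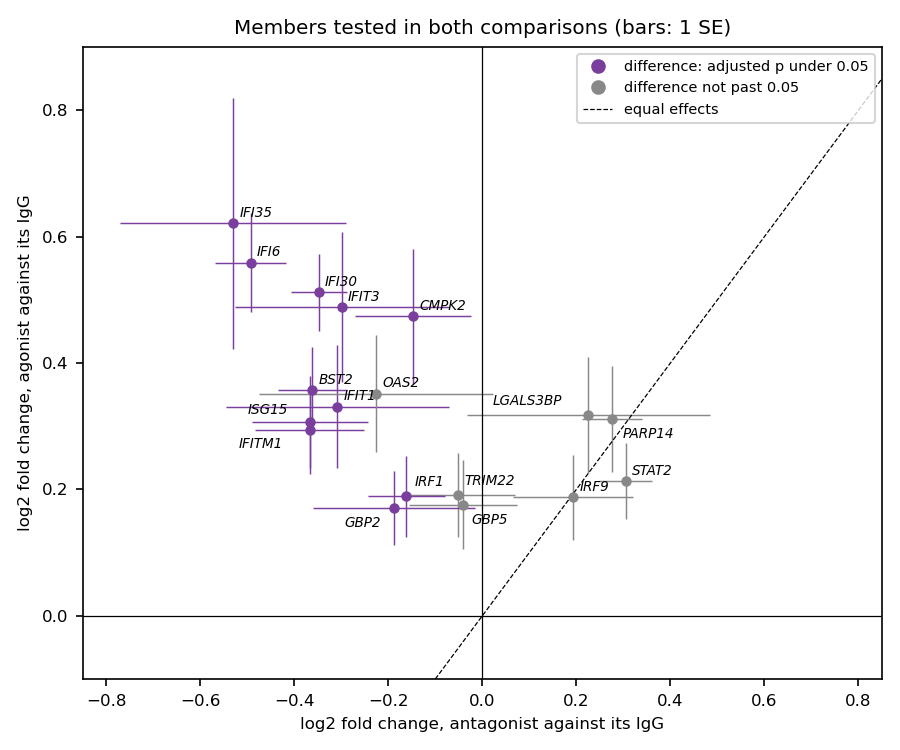
Log2 fold change with the antagonist (horizontal) and with the agonist (vertical), each against its own IgG group of 3 libraries, for the 18 members tested in both (bars 1 SE); coloured points have a difference past an adjusted p of 0.05. The 11 coloured genes lie left of 0 and above 0, while IRF9, STAT2, PARP14 and LGALS3BP lie near the dashed line of equal effects.

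Around these targets, 47 of 59 other genes of the interferon pathway were tested in set 1, and 12 fell and 5 rose with the antagonist, where 20.5% of all tested genes fell and 15.6% rose. All 6 listed interferon ligand genes, IFNG and IFNB1 among them, had 0 counts in the IgG libraries. Of 5 tested receptor genes 3 fell, and of the 3 kinases none passed. Of 15 effectors 6 fell, led by the immunoproteasome subunits PSMB9 (-0.66 ± 0.21) and PSMB8 (-0.66 ± 0.20). CIITA (0.66 ± 0.12), which drives MHC class II genes, and NLRC5 (0.48 ± 0.07), which drives MHC class I genes, rose. In set 2, 6 pathway genes were listed and all 6 were higher with the agonist, in a table where 99.9% of genes passed and 55.6% were higher. SOCS3, a feedback inhibitor of cytokine receptors, led with 0.71 ± 0.20, followed by TRIM5 (0.26 ± 0.09), IRF3 (0.26 ± 0.08) and STING1 (0.19 ± 0.08).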

How the data were processed

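The authors deposited 1 table of whole-number counts per gene symbol for each set. Per the submitters' processing notes, HISAT2 and Cufflinks were used with hg38; no version, counting program, annotation or strand setting is given in the sources used here. Column names carry no replicate number, so columns were assigned to groups and numbered by position, as names only. In set 1, 570 of 28395 rows had no symbol (0.0678% to 0.105% of counts) and were left out. edgeR 4.0.16 (R 4.3.3) was run on each whole table with filterByExpr, TMM and the robust quasi-likelihood test, adjusted by Benjamini-Hochberg, threshold 0.05. CPM values are TMM-scaled, except shared CPM, marker sums and floors. SE came from the fold change and the F statistic. DESeq2 1.42.0, library totals, no filter and leaving out each library were alternatives. For the difference of the effects, totals and DESeq2's size factors used the shared genes only, and the filter was kept. Scripts were tested on simulated data. Counting intervals are exact (95%), and they and floors cover counting error only. Exon lengths were the union of GENCODE 29 exons; all 59 members matched. Named were members past the threshold (12 largest per comparison in full), the best counted 4, classical interferon gamma targets, members at low counts, and up to 4 pathway genes per comparison. Members and lists were chosen with earlier results of these data known. One gene of the pathway list is not reported here by name.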

Additional observations from a re-analysis of the deposited data

Results flagged for a closer look

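For 11 of the 24 members in both tables (45.8%), the effect of the agonist differed from that of the antagonist. The interaction test was used (edgeR, adjusted over 902 shared genes, 3 libraries per group). Among shared genes 56.5% differed and 29.7% had the agonist value higher. The set 2 table holds genes selected on these libraries, so the zero point of each difference is uncertain. For the same reason a call here, kept in other settings or not, is no independent evidence. The differences, agonist minus antagonist on the log2 scale, were 1.15 ± 0.35 (SE) for IFI35, 1.05 ± 0.12 for IFI6, 0.86 ± 0.09 for IFI30 and 0.79 ± 0.24 for IFIT3. They were 0.72 ± 0.11 for BST2, 0.67 ± 0.13 for ISG15, 0.66 ± 0.13 for IFITM1, 0.64 ± 0.24 for IFIT1 and 0.62 ± 0.16 for CMPK2. The smallest were 0.36 ± 0.14 for GBP2 and 0.35 ± 0.10 for IRF1. GBP2 was no longer past the threshold in 9 of 14 other settings, IFIT1 in 4 and IRF1 in 2, and the other 8 stayed past it in all 14.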

How the results depend on the processing

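No paired analysis was possible because the columns carry no replicate numbers, so the replicate block was not run. With library totals in place of TMM, 4 members fell with the antagonist in place of 8. Leaving out 1 library at a time gave between 4 and 7 falls, 4 without antagonist library 1 and 5 without antagonist library 3, and between 3 and 5 rises, 5 without IgG library 1. Counts with the agonist and of differing effects stayed within 1.5 times the reported ones in every alternative run.

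Some members that did not pass with the antagonist changed sign. With library totals this held for MX2 (0.060), EIF2AK2 (0.052), DDX60 (0.011), TRIM22 (0.028), USP18 (0.038), GBP5 (0.037), IRF2 (0.078) and DTX3L (0.073), and with DESeq2 for IRF2 (0.016) and DTX3L (0.012). Leaving out 1 library changed the sign of DDX60 (-0.19 to 0.027), DTX3L (-0.019 to 0.045), EIF2AK2 (-0.12 to 0.058), GBP5 (-0.14 to 0.042), IRF2 (-0.033 to 0.068), ISG20 (-0.41 to 0.086), MX2 (-0.039 to 0.024), OAS1 (-0.040 to 0.45), OAS2 (-0.53 to 0.027), OASL (-0.50 to 0.0031), SAMD9L (-0.29 to 0.016), SOCS1 (-0.19 to 0.11), TRIM22 (-0.12 to 0.046) and USP18 (-0.082 to 0.0075), given as the lowest and highest value. The difference of the effects changed sign for PARP14 with totals over shared genes (-0.080) and DESeq2 (-0.11), and for LGALS3BP likewise (-0.022 and -0.056). It also did so on leaving out 1 library for IRF9 (-0.14 to 0.072), LGALS3BP (-0.028 to 0.27) and PARP14 (-0.026 to 0.15). The cause was not tested. The unknown depth of set 2 and the low counts of classical targets in set 1 limit what either comparison can show.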
